A study of Mus musculus with 6 samples.

Results

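The genes described here form the machinery that heart muscle uses to take apart its own proteins and organelles: the FOXO transcription factors, the muscle ubiquitin ligases of atrophy, the genes that build autophagosomes, the mitophagy receptors and the lysosome. They are a list of 44 genes chosen by name with earlier results of these data known, though the rule itself uses no measured value, and a probe set counted for a gene only where the platform annotation tied it to that gene alone. Of the 44 genes, 38 were measured by 97 probe sets, among 18193 genes on the arrays. Mstn, Trim55, Fbxo40, Ubb, Park2 and Bnip3l are not analysed here. The 3 probe sets annotated to Bnip3l are also annotated to its pseudogene, and 1 further probe set of Foxo3 that is shared with another gene was not used.

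The study asked what deletion of PTIP, a nuclear protein encoded by Paxip1 that acts with a histone H3 lysine 4 methyltransferase complex, does to gene expression in the adult mouse heart. RNA from the left ventricular apex of 6 mice was hybridised to Affymetrix arrays, 1 array per heart. All were 8-week-old female littermates of mixed C57B6 and B6129 background, and all received tamoxifen at 20 mg/kg. The labels place collection 5 days after tamoxifen in one field and describe 5 days of treatment in another. The 3 PTIP KO mice carried 1 floxed and 1 null allele of the gene and a transgene for Cre recombinase fused to a modified estrogen receptor, driven by the cardiomyocyte promoter of alpha myosin heavy chain. The 3 PTIP+ mice, called controls below, carried 1 floxed and 1 wild-type allele, and no Cre transgene is named for them. Loss of PTIP, the transgene and the null allele therefore differ together between the groups and cannot be told apart. The apex holds other cells beside the cardiomyocytes in which the transgene acts. Markers of cardiomyocytes were high on every array.

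FOXO factors are transcription factors that insulin and AKT signalling keeps out of the nucleus. In muscle they are known activators of the ubiquitin ligases atrogin-1 (Fbxo32) and MuRF1 (Trim63), which mark muscle proteins for the proteasome, and of several autophagy genes. Autophagy begins with the ULK kinases and a lipid kinase complex, goes on with the attachment of ATG8 proteins to the growing membrane, and ends when the autophagosome fuses with the lysosome. Mitophagy is the same process aimed at mitochondria, on which the heart depends for its energy.

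Values are log2 expression values, so a difference of 1 is a 2-fold difference. Each gene is given by its brightest probe set unless another is named, and each difference is knockout minus control. Differences were tested with limma over all 45037 probe sets, with Benjamini-Hochberg adjustment over all of them. None of the 97 member probe sets reached an adjusted p under 0.05, against 0.191% of all probe sets (0.0666% higher and 0.124% lower in the knockouts). At an unadjusted p under 0.05 there were 17 member probe sets, against 9.07% of all probe sets. Of the 17, 16 were higher in the knockouts and 1 was lower, where over all probe sets 4.48% were higher and 4.59% lower. Most member probe sets are bright, and shares over all probe sets include many dim ones. In a fit limited to the 22518 probe sets above the median level, 81 of them members, 2650 reached the unadjusted level. In that fit 104 reached an adjusted p under 0.05, 0 of them members. On 28 of the 97 probe sets every knockout lay above every control, against 7.64% of all probe sets, and on 1 every knockout lay below, against 6.73%. The difference was above 0 on 65 of the 97, against 51.5% of all probe sets. Of the 38 genes, 0 passed by the brightest probe set, against 0.286% of all genes, and 5 reached the unadjusted level, against 9.27% of all genes. All 5 were higher and 0 were lower, against 5.47% and 3.8% of all genes. Those 5 were Fbxo32, Gabarapl1, Bnip3, Sqstm1 and Foxo4. In 13 of the 38 genes every knockout lay above every control, against 9.44% of all genes, and in 0 genes did every knockout lie below, against 6.57%. The difference was above 0 in 27 of the 38 genes, where 55.1% of all genes were above 0. The median difference of the 38 genes was 0.12, beside 0.02 over all genes.

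**Figure D1:**
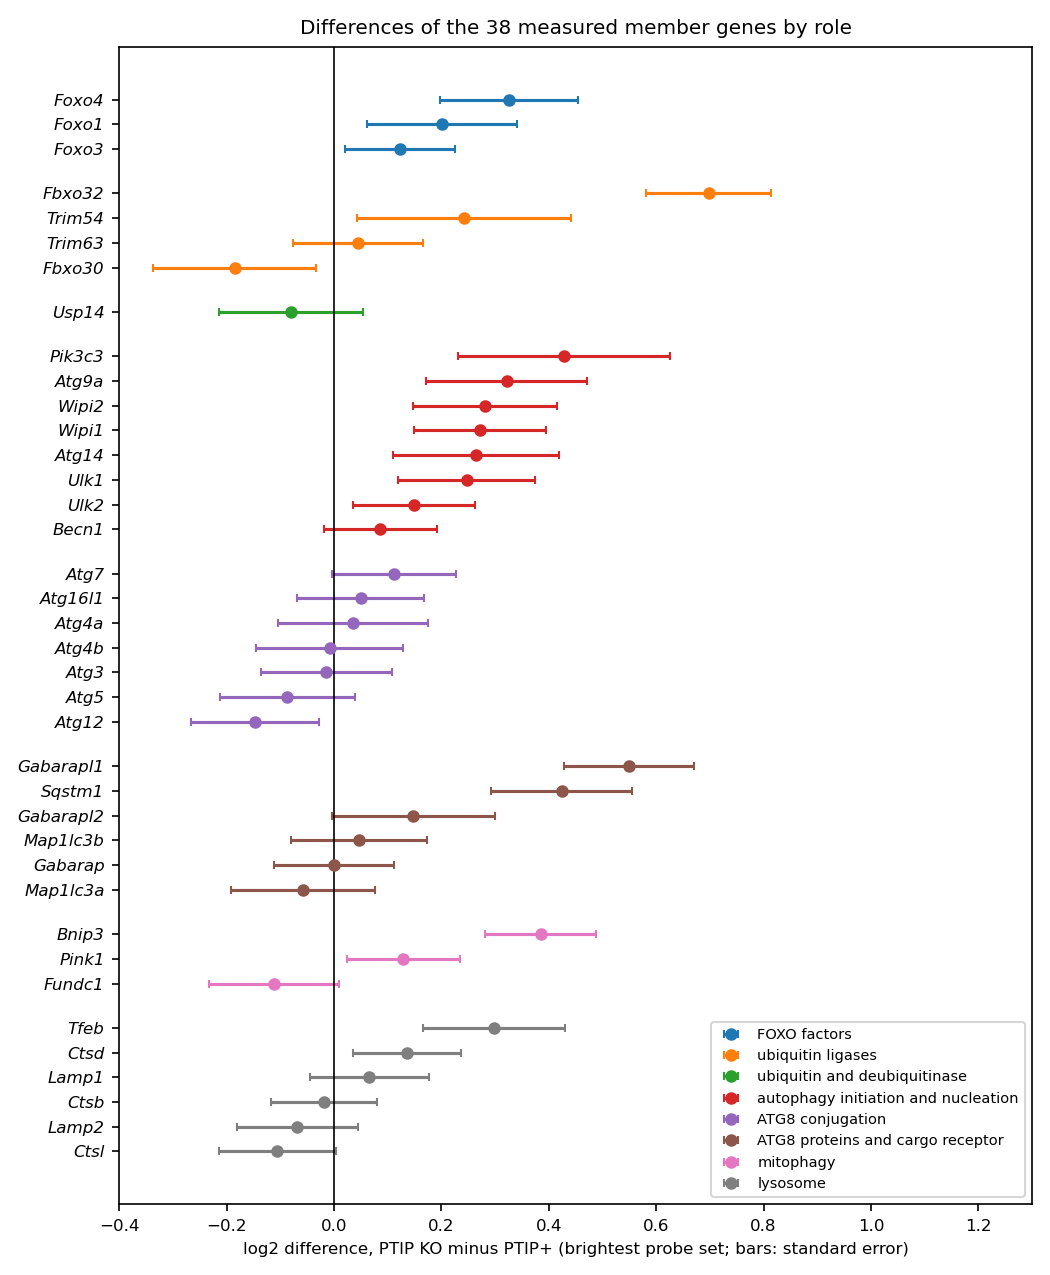
Log2 difference (PTIP KO minus PTIP+, horizontal axis) of the brightest probe set of each of the 38 measured genes, coloured by role, with bars for the limma standard error (3 mice against 3). Fbxo32 at 0.70 and Gabarapl1 at 0.55 lie farthest to the right, all 8 initiation genes lie right of 0, and the 7 conjugation genes lie on both sides of it.

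The promoters of Gabarapl1 and Bnip3 are shown because these genes were among those that read higher in the knockouts. Bnip3 held an exact motif match and Gabarapl1 held none. That of Trim63, whose levels overlapped, is shown because it held the exact letters GTAAACA. The sequences are the 250 bases before the start of each gene, from RefSeq on GRCm38.p6, written 5′ to 3′ on the strand of the gene. In all, 3 motifs were searched on both strands: GTAAACA, bound by FOXO factors, TCACGTGA, the CLEAR element bound by TFEB, and ACGTG, the core of the hypoxia response element, which also lies inside TCACGTGA. Capitals mark the matches. Only these exact letters were searched, so a promoter without capitals may still hold a variant of a motif. Gabarapl1 lies on the plus strand at chr6:129532942-129533191, Bnip3 on the minus strand at chr7:138909507-138909756 and Trim63 on the plus strand at chr4:134314870-134315119.
Gabarapl1: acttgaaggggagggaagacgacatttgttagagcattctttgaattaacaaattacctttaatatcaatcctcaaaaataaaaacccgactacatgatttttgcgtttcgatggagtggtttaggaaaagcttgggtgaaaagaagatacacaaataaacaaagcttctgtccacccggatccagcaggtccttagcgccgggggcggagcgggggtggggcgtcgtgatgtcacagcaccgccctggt
Bnip3: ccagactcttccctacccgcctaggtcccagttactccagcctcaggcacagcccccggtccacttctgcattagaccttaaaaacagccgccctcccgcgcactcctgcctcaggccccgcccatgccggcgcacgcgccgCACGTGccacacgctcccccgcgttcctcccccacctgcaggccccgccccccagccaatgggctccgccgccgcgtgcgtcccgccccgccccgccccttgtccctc
Trim63: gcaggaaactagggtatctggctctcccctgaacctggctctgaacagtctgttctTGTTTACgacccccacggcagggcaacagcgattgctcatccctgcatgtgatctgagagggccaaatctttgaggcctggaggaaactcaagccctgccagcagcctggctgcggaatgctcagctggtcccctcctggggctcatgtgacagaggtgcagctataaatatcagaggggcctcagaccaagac

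Promoters of 29 of the 38 measured genes were in the table. GTAAACA was found in 1 of these genes, Trim63, where it begins at position -194 from the start on the opposite strand, and in 3.17% of all 32851 promoters. TCACGTGA was found in Atg3 and Ctsd and in 0.785% of all promoters. ACGTG was found in 11 of the 29 genes and in 16.6% of all promoters. The 29 genes had 32 promoters, the unit of the shares over all promoters. GTAAACA was in 1 of the 32 (3.12%), TCACGTGA in 2 (6.25%) and ACGTG in 11 (34.4%). In Bnip3 ACGTG lies on both strands within the palindrome in capitals, which begins at position -108. A match is a run of letters and not a site shown to be bound. The promoters of Fbxo32, Foxo4 and Becn1 were not in the table.

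The 3 FOXO factors all read higher in the knockouts, by 0.12 to 0.33, and none passed the test. Foxo4, the factor with the largest difference, read 11.39, 11.45 and 11.29 in knockouts 1 to 3 and 11.26, 10.90 and 10.98 in controls 1 to 3. The lowest knockout stood 0.03 above the highest control. The difference was 0.33 ± 0.13 (SE, n = 3 and 3; limma adjusted p = 0.514), and it was 0.25 to 0.43 when any 1 mouse was left out. It reached the unadjusted level in 1 of those 6 fits, the one without control 1. A second, dim Foxo4 probe set differed by -0.03.

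Foxo3, the factor best known for driving atrophy and autophagy genes in muscle, read 11.79, 11.88 and 11.74 in the knockouts and 11.73, 11.68 and 11.64 in the controls. The groups did not overlap, yet the difference was only 0.12 ± 0.10 (SE; limma adjusted p = 0.813). A dim Foxo3 probe set, near the median level of the array, read 5.27, 5.32 and 5.31 against 4.55, 5.04 and 4.82, a difference of 0.49 (limma adjusted p = 0.339). Foxo1, a factor that insulin signalling holds in check, read 9.999, 10.13 and 9.84 in the knockouts and 9.97, 9.81 and 9.59 in the controls. Its groups overlapped, with a difference of 0.20 ± 0.14 (SE, limma adjusted p = 0.764), and of 0.10 without control 3. The other Foxo1 probe sets differed by -0.03, 0.195 and 0.003, all with overlap.

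Among the 4 ubiquitin ligases, Fbxo32 had the largest difference. Fbxo32 encodes atrogin-1, the F-box subunit that brings muscle substrates to an SCF ubiquitin ligase. Its brightest probe set read 10.87, 10.90 and 10.81 in the knockouts and 10.04, 10.32 and 10.12 in the controls. The 3 knockouts lay within 0.09 of each other, and the lowest of them was 0.49 above the highest control. The second probe set read 10.87, 11.03 and 10.71 against 10.05, 10.13 and 9.87. The dimmest read 10.12, 10.10 and 9.69 against 8.86, 9.05 and 9.03. All 3 probe sets thus separated the groups, by 0.70 ± 0.12, 0.85 ± 0.13 and 0.99 ± 0.15 (SE), or 1.62-fold, 1.81-fold and 1.99-fold. Their limma adjusted p values were 0.0988, 0.0814 and 0.0743, so none passed. With a mean-variance trend in the limma model they were 0.0185, 0.0161 and 0.0215. Left without any 1 mouse, the brightest probe set differed by 0.64 to 0.78.

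Trim63 encodes MuRF1, the RING finger ligase that marks myosin and other thick filament proteins. It read 11.72, 11.78 and 11.63 in the knockouts and 11.83, 11.52 and 11.64 in the controls. The groups overlapped, and control 1 was the highest of the 6 mice. The difference was 0.05 ± 0.12 (SE; limma adjusted p = 0.957), with a 95% interval from -0.24 to 0.33. The interval for Fbxo32 ran from 0.43 to 0.97, so the 2 intervals did not meet.

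Within each array, Fbxo32 minus Trim63 was -0.85, -0.88 and -0.82 in the knockouts and -1.79, -1.20 and -1.52 in the controls. The knockouts were nearly equal to one another and all above the controls, by 0.65 on average. Its exact two-sided permutation p was 0.1, the smallest that 3 against 3 mice allow, and the contrast was formed after the values were seen. Trim54, a sarcomeric relative of MuRF1, differed by 0.24 ± 0.20 (SE) with overlapping groups, and by 0.07 without control 1 and 0.09 without knockout 1. Fbxo30, another F-box ligase of muscle atrophy, read lower on all 4 of its probe sets, with differences from -0.19 to -0.10 and overlapping groups, and its brightest differed by -0.05 without knockout 1. Usp14, a deubiquitinase of the proteasome, differed by -0.08 ± 0.13 (SE).

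**Figure D2:**
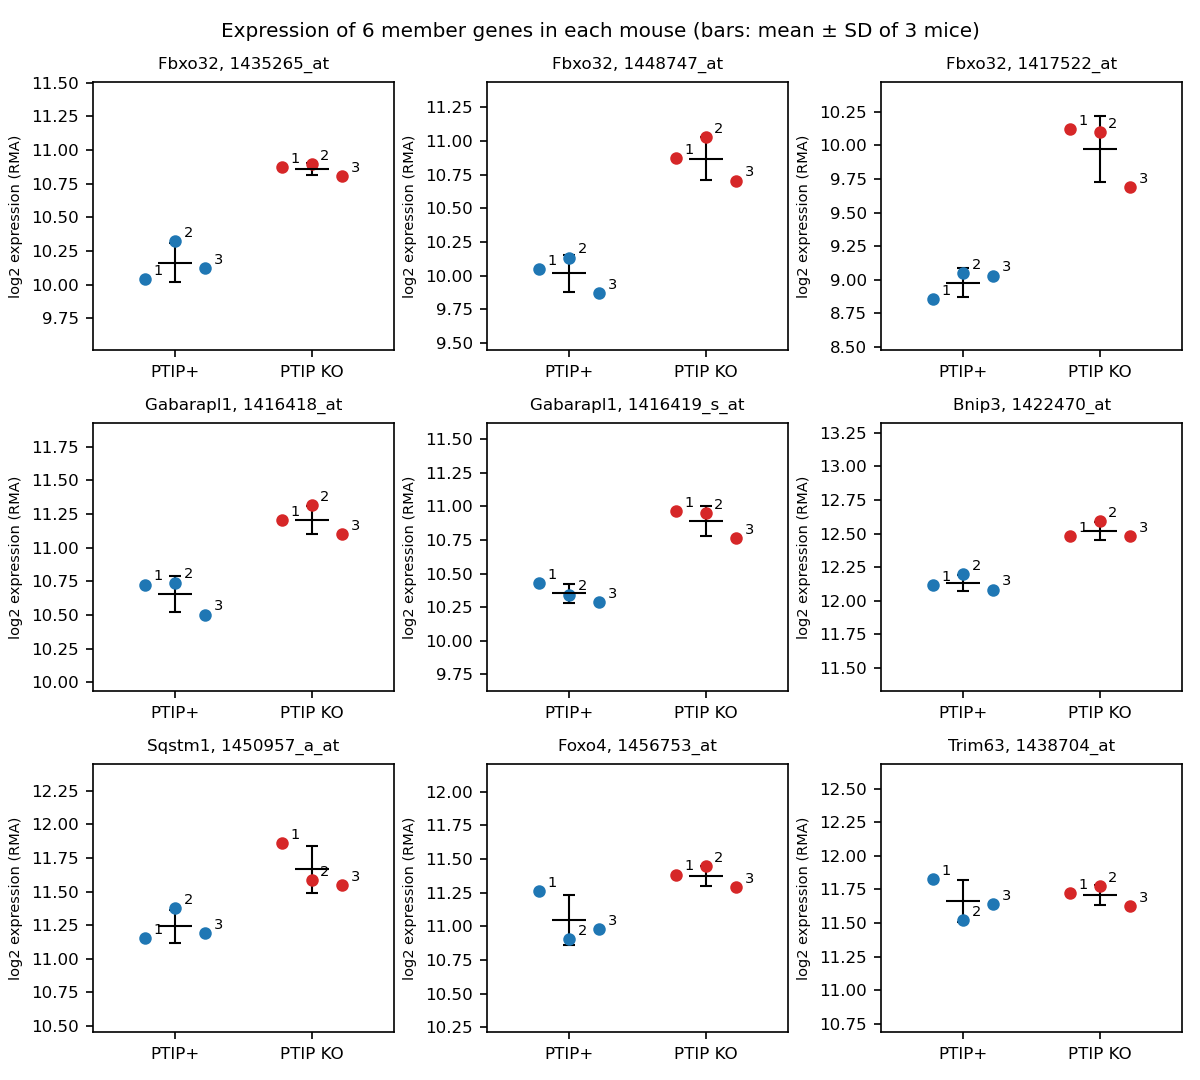
Log2 expression in each mouse (points, vertical axis) for all 3 probe sets of Fbxo32 and the 2 of Gabarapl1, with a panel for each. Bnip3, Sqstm1, Foxo4 and Trim63 are shown by the brightest probe set. Bars give the mean and SD of each group of 3. In every panel of Fbxo32, Gabarapl1 and Bnip3 each PTIP KO point lies above every PTIP+ point, whereas the points of Trim63 overlap.

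The 8 genes that start an autophagosome read higher in the knockouts, with none past the test. By the brightest probe set, 0 of the 8 reached even an unadjusted limma p under 0.05, against 9.27% of all genes. Of their 23 probe sets, 5 were higher and 1 was lower at that level, against 4.48% and 4.59% of all probe sets. All 8 differences were above 0, from 0.09 to 0.43 with a median of 0.27, and 21 of their 23 probe sets were above 0, where 55.1% of all genes and 51.5% of all probe sets were. The median was 0.17 without knockout 2 and 0.17 in the 4 mice whose description numbers share their leading digits. All 8 stayed above 0 when any 1 mouse was left out, when arrays were centred on their medians and after renewed quantile normalization. With each gene taken as the mean of its probe sets, 7 of 8 were above 0 and Ulk2 differed by -0.07. In 4 of the 8, Ulk1, Atg14, Wipi1 and Wipi2, every knockout lay above every control, against 9.44% of all genes. The brightest probe set of Wipi2 differed by 0.28, and by 0.17 without knockout 2.

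Ulk1, the kinase that receives the signal of nutrient state, read 10.20, 10.37 and 10.12 in the knockouts and 10.09, 9.81 and 10.04 in the controls. Only 0.02 separated the lowest knockout from the highest control, and the difference was 0.25 ± 0.13 (SE; limma adjusted p = 0.646), or 0.16 without control 2. Its paralogue Ulk2 differed by 0.15 on its brightest probe set. A dim Ulk2 probe set read 4.87, 4.53 and 4.88 in the knockouts and 5.05, 5.12 and 5.40 in the controls, a difference of -0.43 (limma adjusted p = 0.45). It was the member probe set with every knockout below every control, and the other Ulk2 probe sets differed by at most 0.15.

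Wipi1 and Wipi2 bind the lipid made by the class III kinase and bring the conjugation machinery to the membrane. All 6 probe sets of Wipi1 were higher in the knockouts, by 0.21 to 0.54. The brightest read 11.31, 11.32 and 11.33 against 10.84, 11.16 and 11.14, a difference of 0.27 ± 0.12 (SE; limma adjusted p = 0.583). The probe set with the smallest p read 9.05, 9.10 and 8.98 against 8.43, 8.60 and 8.66.

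That probe set differed by 0.48 ± 0.11 (SE; limma adjusted p = 0.228). A further Wipi1 probe set read 8.75, 8.74 and 8.85 against 7.95, 8.46 and 8.47, and a dimmer one read 5.94, 5.64 and 5.71 against 4.93, 5.62 and 5.12. Control 1 was the lowest mouse on 5 of the 6 Wipi1 probe sets. Without it the brightest differed by 0.17 and the one with the smallest p by 0.41.

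For Wipi2, a probe set below the brightest read 7.60, 7.61 and 7.50 in the knockouts and 7.17, 7.28 and 7.28 in the controls, a difference of 0.32 (limma adjusted p = 0.398). The groups were separated by more than the range within either. Pik3c3, the catalytic subunit of the class III lipid kinase, had the largest difference of the 8, at 0.43 ± 0.20 (SE), but its groups overlapped and without control 2 it was 0.25. Becn1, the Beclin 1 scaffold of that complex, differed by 0.09. A dim Becn1 probe set read 4.66, 5.15 and 4.88 against 4.54, 4.60 and 4.40, a difference of 0.39 (limma adjusted p = 0.498). Atg14, which directs the complex to autophagy, differed by 0.26, and by 0.10 without knockout 2. Atg9a, the membrane carrier, differed by 0.32 with overlapping groups, and by 0.21 without control 2.

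The 7 genes that attach ATG8 proteins to the membrane showed no common direction. Their differences ran from -0.15 for Atg12 to 0.11 for Atg7 with a median of -0.01, and 3 of 7 were above 0. Centred on the array medians, 5 of 7 were above 0. None of the 7 separated the groups on its brightest probe set.

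Atg7, the E1-like enzyme of the 2 conjugation reactions, was the only gene of the 7 with probe sets at an unadjusted limma p under 0.05. The first of these read 7.54, 7.49 and 7.40 in the knockouts and 7.17, 7.02 and 7.36 in the controls. The second read 5.43, 5.46 and 5.67 against 5.00, 5.18 and 5.31. They differed by 0.30 and 0.36 (limma adjusted p = 0.538 and 0.467), while the brightest probe set differed by 0.11. Atg5 and Atg12, which are joined to each other, differed by -0.09 and -0.15. Atg16l1, Atg3, Atg4a and Atg4b differed by -0.01 to 0.05.

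Among the 5 ATG8 proteins, Gabarapl1 had the largest difference, and the other 4 differed by -0.06 to 0.15. Gabarapl1 belongs to the GABARAP branch of the family, whose members coat the autophagosome and bind its cargo receptors. Its brightest probe set read 11.21, 11.31 and 11.10 in the knockouts and 10.73, 10.74 and 10.50 in the controls. The second read 10.97, 10.95 and 10.77 against 10.43, 10.34 and 10.29. On both, the lowest knockout stood at least 0.34 above the highest control. The differences were 0.55 ± 0.12 and 0.54 ± 0.11 (SE), both 1.46-fold, with limma adjusted p values of 0.205 and 0.181.

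Map1lc3b, the LC3 protein most used to follow autophagy, read 12.28, 12.28 and 12.37 in the knockouts and 12.05, 12.39 and 12.36 in the controls. Control 1 was the lowest mouse and control 2 the highest, so the groups overlapped, and the difference was 0.05 ± 0.13 (SE). A dimmer Map1lc3b probe set put every knockout above every control, by 0.13. Another differed by 0.01 and one below the median level by -0.475, both with overlap. Gabarap, Gabarapl2 and Map1lc3a differed by 0.00, 0.15 and -0.06, each with overlapping groups, and Gabarapl2 by 0.01 without control 1. Within each array, Gabarapl1 minus the mean of its 4 relatives was -0.57, -0.47 and -0.72 in the knockouts and -0.90, -1.12 and -1.29 in the controls. The groups were apart, by 0.52 on average (exact two-sided permutation p = 0.1, again the smallest possible), in a contrast that was also formed after the values were seen.

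Sqstm1 encodes p62, the receptor that ties ubiquitin-marked cargo to ATG8 proteins. It read 11.86, 11.58 and 11.55 in the knockouts and 11.15, 11.38 and 11.19 in the controls. Every knockout was above every control, and knockout 1 was the highest of the 6. The difference was 0.42 ± 0.13 (SE; limma adjusted p = 0.381), or 1.34-fold. Its second probe set differed by 0.13 ± 0.22 (SE) with overlapping groups.

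Of the mitophagy genes, Bnip3 showed the clearest separation. Bnip3 is an outer mitochondrial membrane protein that hypoxia and FOXO factors are known to raise and that recruits ATG8 proteins. It read 12.48, 12.60 and 12.48 in the knockouts and 12.12, 12.20 and 12.08 in the controls. The lowest knockout was 0.28 above the highest control, while the mice of each group lay within 0.12 of each other. The difference was 0.39 ± 0.10 (SE; limma adjusted p = 0.302), or 1.31-fold, and it was 0.35 to 0.42 when any 1 mouse was left out.

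Pink1, the kinase that marks damaged mitochondria for Parkin, read 12.73, 12.67 and 12.67 in the knockouts and 12.46, 12.62 and 12.61 in the controls. The groups did not overlap, with a difference of 0.13 ± 0.10 (SE; limma adjusted p = 0.804), or 0.08 without control 1. Its second probe set also separated them, by 0.08. Fundc1, another hypoxia-linked mitophagy receptor, differed by -0.11 with overlapping groups, and by -0.03 without knockout 1.

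The 6 lysosomal genes went both ways, with 3 above 0, a range from -0.11 to 0.30 and a median of 0.02. With each gene taken as the mean of its probe sets, 6 of 6 were above 0 with a median of 0.10. Tfeb, the transcription factor of lysosome biogenesis, read 7.16, 6.79 and 6.83 in the knockouts and 6.58, 6.61 and 6.70 in the controls. Every knockout lay above every control, but knockout 1 was well above the others. The difference was 0.30 ± 0.13 (SE; limma adjusted p = 0.573), and 0.18 without knockout 1.

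Ctsl, the lysosomal protease cathepsin L, read 11.47, 11.57 and 11.56 in the knockouts and 11.55, 11.76 and 11.60 in the controls, a difference of -0.11 ± 0.11 (SE). Lamp2, a membrane protein needed for fusion with autophagosomes, read 11.12, 11.36 and 11.29 against 11.40, 11.30 and 11.27, a difference of -0.07 ± 0.11 (SE). The groups overlapped for both. Ctsd, the aspartic protease cathepsin D, differed by 0.14 without overlap between the groups, and Lamp1 and Ctsb differed by 0.07 and -0.02 with overlap.

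**Figure D3:**
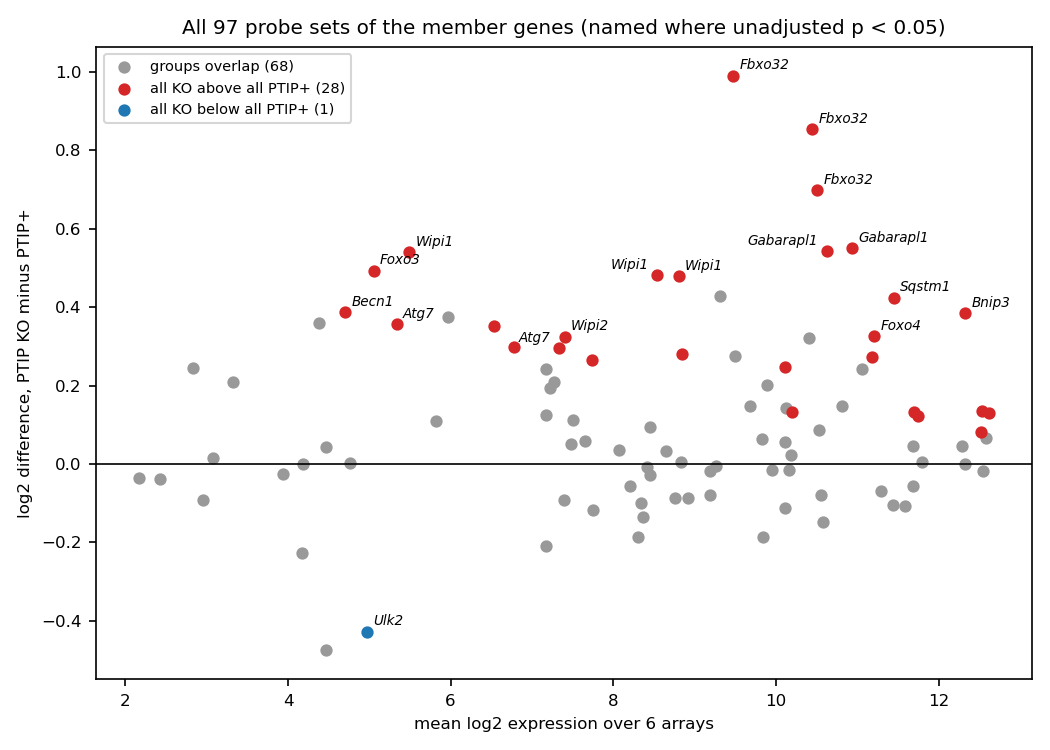
Log2 difference (PTIP KO minus PTIP+, vertical axis) against the mean log2 expression over 6 arrays (horizontal axis) for all 97 probe sets of the 38 genes, with the gene named where the unadjusted limma p was under 0.05. The 3 Fbxo32 probe sets are the highest points, the 28 red points are probe sets with every knockout above every control, and 1 blue point, of Ulk2, is the reverse.

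The probe sets of a gene did not always go the same way. Of the 28 genes with several probe sets, 10 had all of them above 0 and 3 had all of them below 0. Those above 0 throughout were Fbxo32, Foxo3, Wipi1, Wipi2, Ulk1, Becn1, Atg4a, Gabarapl1, Sqstm1 and Pink1. Fbxo30, Atg3 and Map1lc3a were below 0 throughout. Of the 97 probe sets, 16 had a mean below the median level of 5.19, none of them the brightest of its gene. The p values of Foxo3, Becn1 and Ulk2 quoted for dim probe sets therefore rest on signals near or below the middle of the array.

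The mice did not contribute evenly. Knockout 2 was the highest of the 6 mice in 15 of the 38 genes and the lowest in 1, and the median of its deviations from the mean of each gene was 0.09. Control 1 was the lowest in 12 genes and the highest in 7. Control 3 was the lowest in 11 and the highest in 2, with a median deviation of -0.07. Without knockout 2 the median difference of the 38 genes was 0.08, against 0.12 with all mice.

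**Figure D4:**
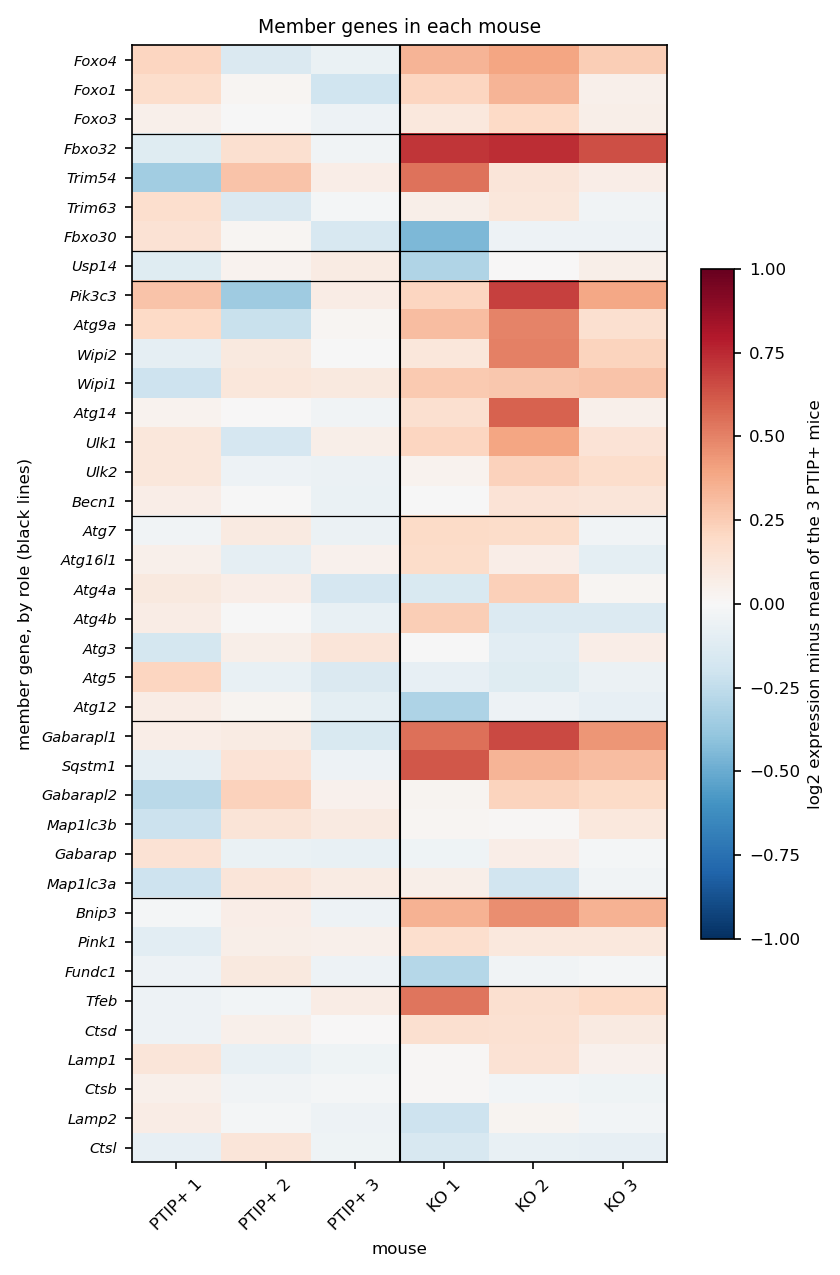
Log2 expression of each mouse (columns) minus the mean of the 3 PTIP+ mice (colour). Rows are the brightest probe sets of the 38 genes, ordered by role. The rows of Fbxo32, Gabarapl1 and Bnip3 change colour between the 3 PTIP KO and the 3 PTIP+ columns, and the PTIP KO 2 column holds the highest value in 15 rows.

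Knockouts 1 and 2 have description numbers in the labels that start with other digits than those of knockout 3 and the controls. The meaning of these numbers is not given. Among the 4 mice that share the leading digits, 1 knockout and 3 controls, the median of the 38 genes was 0.06. In the same 4 mice Fbxo32 differed by 0.65, Gabarapl1 by 0.44, Bnip3 by 0.35, Sqstm1 by 0.31 and Foxo4 by 0.24. Trim63 differed by -0.035 there.

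Other genes of these pathways were read from 9 lists that hold no member. Of 127 such genes, 119 were measured, 72 of them above 0 where 55.1% of all genes were, with a median of 0.04. None passed the test at an adjusted p under 0.05, and at an unadjusted limma p under 0.05 10 were higher and 4 lower, against 5.47% and 3.8% of all genes. The list of other initiation genes held 14, of which 9 were above 0. Uvrag, a subunit of the class III lipid kinase complex, differed by 0.42 and Atg13, a partner of ULK1, by 0.31, while Tmem41b, a lipid scramblase of the endoplasmic reticulum, differed by -0.35. In these 3 genes the groups did not overlap on the brightest probe set. Other Tmem41b probe sets differed by -0.31 and -0.37 without overlap, and by -0.15, 0.01 and 0.05 with overlap. Those of Atg13 differed by 0.27 without overlap and by 0.08 with overlap.

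Of the 11 genes of autophagosome fusion, 9 were above 0, where 55.1% of all genes were. Vps16 and Vps18, core subunits of the tethering complex HOPS, differed by 0.34 and 0.39, and Stx17, the SNARE of the autophagosome, by 0.24. Other Stx17 probe sets differed by -0.001, 0.06 and 0.08 and other Vps18 probe sets by 0.21 and -0.09, all with overlap. Among 13 other cargo and mitophagy receptors and their regulators, Mfn2, the mitofusin that PINK1 marks, differed by 0.15 without overlap between the groups. Fkbp8 and Usp30 differed by 0.21 with overlap. Of the 5 other conjugation genes, Atg10 differed by 0.20, Atg16l2 by 0.31 and Atg4c by -0.07.

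The nearest to a call was Lipa, the lysosomal acid lipase, among 20 other lysosomal genes. It read 9.37, 9.18 and 9.49 in the knockouts and 8.42, 8.498 and 8.45 in the controls. All knockouts were clearly above all controls. The difference was 0.89 ± 0.12 (SE; limma adjusted p = 0.051), or 1.85-fold. Of its other probe sets, 1 differed by 0.86 and 1 by -0.49. In the same list Gaa, the lysosomal glucosidase, differed by 0.33, and Ctsc, a protease rich in immune cells, by -0.51.

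Markers of macrophages, which are rich in lysosomes, were lower in the knockouts beside these lysosomal genes. All 10 of 10 measured markers were below 0, with a median of -0.34, where 55.1% of all genes were above 0. At an unadjusted limma p under 0.05, 4 of the 10 were lower, against 3.8% of all genes, and 0 at an adjusted one. The summed log2 level of the 10 markers was 82.5 to 88.1 in the knockouts and 88.4 to 89.8 in the controls. Only Cx3cr1 lay below the median level of the array. In RNA of whole tissue, fewer cells of a type and less RNA per cell cannot be told apart. The part of these cells in the lysosomal values was not tested. Cardiomyocyte markers summed to 106.1 to 106.6 in the knockouts and 106.6 to 106.7 in the controls. Of these 8 markers 7 were below 0, with a median of -0.03. Of the skeletal muscle markers, Actn3, Myh1, Myh2 and Myh4 lay below the median level, and the summed level was highest in control 1.

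Among 20 genes known to respond to FOXO factors or to mark atrophy, 10 were above 0, with a median of 0.00. Irs2, the insulin receptor substrate that FOXO1 is known to raise, differed by 0.60 and Sesn3, a sestrin that FOXO factors are known to raise, by 0.47. Cited2, a regulator of the hypoxia response, differed by -0.50. The groups did not overlap in these 3 genes, whose limma adjusted p values were 0.298, 0.309 and 0.246. Of the 13 AKT and mTOR genes, 8 were above 0 and 5 below, from -0.34 to 0.36. In 6 of the 13 every knockout lay above every control, against 9.44% of all genes. In 1 every knockout lay below every control, against 6.57%. Tsc2, an inhibitor of mTOR complex 1, differed by 0.36, Akt2 by 0.32 and Rptor by 0.30, each without overlap.

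In the list of myostatin and activin genes, 4 of 12 were above 0. Fstl3, a secreted inhibitor of activin and myostatin, read 7.50, 7.78 and 7.71 in the knockouts and 7.18, 6.87 and 7.11 in the controls. The groups were well apart, with a difference of 0.61 ± 0.13 (SE; limma adjusted p = 0.205). Acvr1b and Smad3, a receptor and a transducer of the same pathway, each differed by 0.24. None of 11 other muscle ligase and ubiquitin genes separated the groups, and Stub1, Wwp1 and Traf6 differed by 0.21, -0.09 and 0.07.

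The targeted gene went with the labels. All 4 probe sets of Paxip1 were lower in the knockouts, by -0.95 to -1.83, and 3 of them passed the test. Arrays correlated at 0.989 or more with each other. The ratio of 3′ to 5′ control probes, a measure of RNA integrity, was highest in control 1, at 1.85 for actin and 1.27 for Gapdh on the log2 scale. Knockouts 1 to 3 read 1.51, 1.45 and 1.64 for actin and 0.92, 0.93 and 0.90 for Gapdh. Controls 2 and 3 read 1.17 and 1.38 for actin and 0.66 and 0.79 for Gapdh. Apart from control 1, every knockout was therefore above every control on this ratio, and leaving out control 1 does not even it out. Control 1 was the lowest mouse in 12 genes, among them Fbxo32, Sqstm1, Wipi1, Wipi2, Pink1, Tfeb, Ctsd, Trim54 and Map1lc3b. Without it Fbxo32 differed by 0.64, Sqstm1 by 0.38 and Tfeb by 0.27. The part of RNA integrity in the differences of these genes was not tested.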

How the data were processed

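The deposited values were log2 expression values that the authors made with RMA (robust multi-array average), per the submitters' processing notes. The sources used here name no RMA version. The values ran from 1.36 to 14.1, from which the log base was inferred. RMA equalises the arrays, so a change in total RNA cannot be seen, and it compresses differences of dim probe sets. Labelled target came from an amplifying NuGen Ovation kit, per the labels' protocols. Precision depended on the number of mice and on the spread of each probe set between mice. The limma standard error was 0.097 for a Pink1 probe set and 0.282 for an Atg4b one.

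Of 45101 probe sets, 64 controls were left out. The platform annotation gave 1 gene for 34945 of the rest, several for 932 and did not list 9160, and 34741 were matched by Entrez identifier to a RefSeq gene table of GRCm38.p6. A gene was represented by the probe set of highest mean over all 6 arrays. The comparison used limma 3.58.1 under R 4.3.3, with group as the only term and Benjamini-Hochberg adjustment over 45037 probe sets. The fit was tested on simulated data. With 3 against 3 mice an exact two-sided permutation p cannot go below 0.1.

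The rule for names was that every member is accounted for by role, that each mouse is printed for probe sets at an unadjusted p under 0.05 and for a set of core genes, and that up to 3 genes of each other list are named. The members and the lists were chosen with earlier results of these data known. Alternatives were array weights, a mean-variance trend, a robust prior, renewed quantile normalization, centring on array medians, 2 filters that removed dim probe sets, the mean of all probe sets, the replicate number as a block, the 4 arrays with shared leading digits, and leaving out each mouse. The labels do not say whether the mice were processed together.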

Additional observations from a re-analysis of the deposited data

How the results depend on the processing

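No member probe set passed in the main analysis, 1 passed when arrays were centred on their medians (a Fbxo32 probe set, 0.0492) and 5 with a variance trend (3 of Fbxo32, 1 of Gabarapl1 at 0.0415 and Bnip3 at 0.0307, all limma adjusted p values). With the mean of its probe sets Fbxo32 differed by 0.85 at a limma adjusted p of 0.0255. Genes higher at an unadjusted p under 0.05 numbered 5, but 9 with a variance trend and 1 in the 4 arrays with shared leading digits. Their count was 4 to 7 and the count of lower genes 0 when 1 mouse was left out. The median of 0.12 was 0.159 after centring, 0.062 in those 4 arrays and 0.081 to 0.131 without 1 mouse, lowest without knockout 2. Of the other pathway genes, 1 passed with a variance trend. Over all probe sets, 86 passed, 30 of them higher, and 90 passed after centring, 43 of them higher. With a variance trend 185 of all 45037 probe sets passed, 83 of them higher, so calls rose over the whole array too. At an unadjusted limma p under 0.05 the variance trend held 4023 of all probe sets, against 4083 in the main analysis. Same-numbered mice did not deviate together, with correlations of -0.15, -0.08 and -0.01, so numbers were not taken as pairs. With the replicate number as a block 0 of all probe sets passed and 0 among the members, with 4 member genes higher at the unadjusted level, so the 3 Paxip1 calls were lost under it. Without 1 mouse, 0 to 21 of all probe sets passed and 0 of the members. The mean of all probe sets has 1 value a gene, so it gives no count of probe sets.

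Signs turned in the genes named here, each within 0.15 of 0 in the main analysis. After centring, Atg3, Atg4b and Ctsb were at 0.028, 0.034 and 0.022. With the mean of all probe sets, Ulk2 was at -0.069, Map1lc3b at -0.072, Atg12 at 0.02, Atg4b at 0.098, Ctsb at 0.052, Ctsl at 0.135 and Lamp2 at 0.001. Map1lc3b was at -0.002 with array weights and Gabarap at -0.012 after renewed quantile normalization. In the 4 arrays, Trim63 was at -0.035, Usp14 at 0.061, Atg16l1 at -0.096, Atg3 at 0.068, Atg7 at -0.038 and Gabarap at -0.021. Without 1 mouse, the range was -0.151 to 0.03 for Usp14, -0.015 to 0.123 for Atg16l1, -0.118 to 0.0 for Lamp2, -0.101 to 0.046 for Atg3, -0.065 to 0.128 for Atg4a, -0.134 to 0.056 for Atg4b, -0.038 to 0.072 for Gabarap, -0.16 to 0.011 for Map1lc3a, -0.159 to 0.021 for Atg5, -0.062 to 0.111 for Map1lc3b, -0.037 to 0.007 for Ctsb and -0.028 to 0.127 for Trim63. The cause of these shifts was not tested. The 95% interval of Trim63, from -0.238 to 0.327, shows the precision that 3 mice a group gave for that gene.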
